A study of Mus musculus with 48 samples.

Results

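The opioid system was examined here through 6 genes: the 3 precursors Penk (preproenkephalin), Pomc (pro-opiomelanocortin) and Pdyn (prodynorphin), and the 3 classical receptors Oprd1 (delta), Oprm1 (mu) and Oprk1 (kappa). They are 6 of the 22485 gene symbols on the array and were measured by 17 of its 43020 spots. The set was chosen by Penk's rise in treated wells over Media wells, so each difference from Media in these 6 genes is given as a description and not as a test. Opioid peptides are cut from large secreted precursors by prohormone convertases, trimmed by carboxypeptidases and destroyed by cell-surface and soluble peptidases. Their receptors couple to inhibitory G proteins, which lower cyclic AMP, and are switched off by receptor kinases, arrestins and RGS proteins. Penk is best known from neurons and the adrenal medulla, and activated helper T cells are a long-known source of its RNA, whereas Pomc and Pdyn are typical of pituitary, hypothalamus and brain.

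The cells were cocultures of 2 populations from Balb/c mice. The T cells were a nonclonal bank of CD4+ cells that had been taken from female mice of 8 to 12 weeks immunized with Copaxone and driven through 13 rounds of restimulation towards a Th2 state. Each well received 0.5 mL of these cells and 0.5 mL of splenocytes from untreated mice as antigen-presenting cells, and was incubated for 24 h. The splenocyte suspension was the denser one, so splenocytes outnumbered T cells at the start. The 4 groups were Media, with no copolymer (7 wells), Copaxone (17 wells, 9 lots), Glatopa (16 wells, 4 lots) and ACN (8 wells, 1 lot), each copolymer at 20 µg/mL. Copaxone and Glatopa are glatiramer acetate, a synthetic copolymer of 4 amino acids, and ACN is a copolymer of the same amino acids that was made to differ from it in structure. Because 1 T-cell bank was used on 1 day, p-values measure the spread between wells and not between animals or experiments.

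T-cell and B-cell markers were present in every group. All 9 measured T-cell markers lay above the median probe of the array (4.93 on the log2 scale) in each group, and so did all 7 B-cell markers. The mean level of the T-cell markers was 8.33 to 8.52 in Media wells and 7.41 to 8.08 in treated wells, where 5 of 9 were lower with Copaxone, 7 with Glatopa and 5 with ACN. The mean level of the Th2 markers was 5.76 to 5.90 in Media wells and 6.66 to 7.54 in treated wells, with 4, 4 and 3 of 7 higher. By group mean 2 of these 7 lay below the median probe in Media, 1 with Glatopa and 0 with Copaxone and with ACN. Of 10 neuron and endocrine markers 0 were called by limma in any comparison with Media at an adjusted p under 0.05, and their mean level was 5.33 to 5.85 over all wells. By group mean 5 of the 10 lay below the median probe in Media and with ACN, and 6 with Copaxone and with Glatopa. The others lay above it, so a level above the median probe is not particular to the labelled cell types. Over all probes limma called 16.2% with Copaxone, 18.9% with Glatopa and 7.09% with ACN. Among probes above the median probe it called 34.8%, 40.2% and 16.4%. In such bulk RNA a change in the number of cells of a type and a change in RNA per cell cannot be told apart. The part of these marker shifts in the results that follow was not tested.

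Penk was strongly expressed in every treated well and clearly lower in every Media well. Media wells had a lowest, median and highest log2 level of 8.53, 8.90 and 9.08 (mean 8.84 ± 0.19 SD, n = 7). ACN wells had 11.54, 11.74 and 11.77 (11.71 ± 0.08, n = 8). Copaxone wells had 11.69, 11.83 and 12.38 (11.90 ± 0.19, n = 17), and Glatopa wells 11.73, 11.89 and 12.52 (11.95 ± 0.19, n = 16). No treated well overlapped a Media well, and the gap between the lowest treated and the highest Media well was 2.60 with Copaxone, 2.65 with Glatopa and 2.46 with ACN. Within the array, Penk stood at the 92.8 to 94.6 percentile of probes in Media wells and at the 98.3 to 99.2 percentile in treated wells, so its RNA was already well above the bulk of probes without a copolymer.

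**Figure D1:**
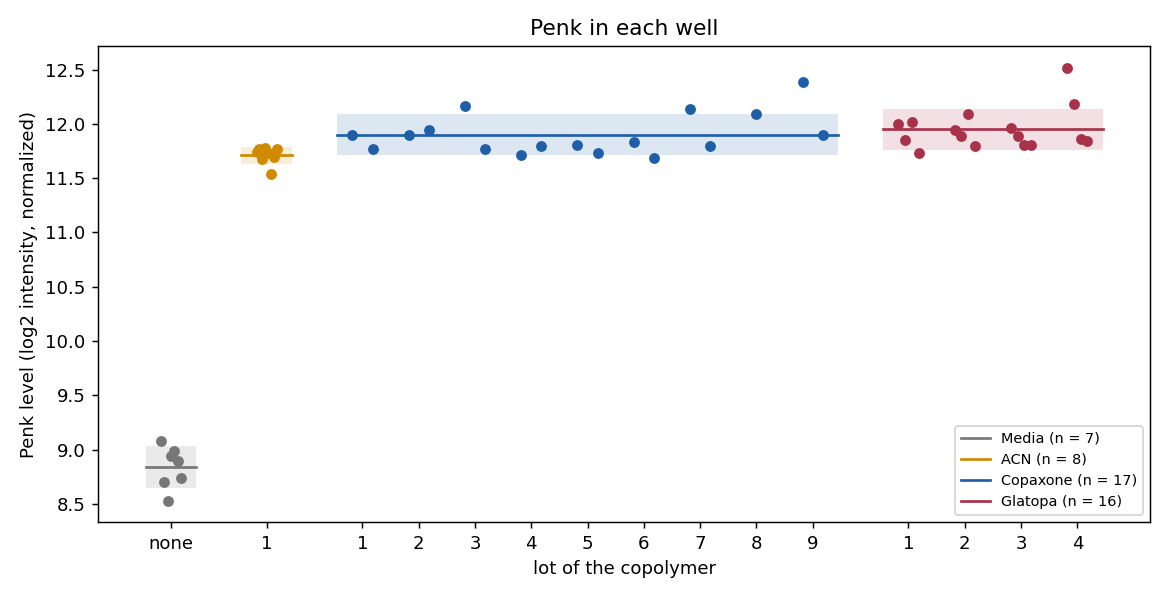
Each point is 1 well, the vertical axis is the normalized log2 level of Penk, and wells are placed by group and by lot of the copolymer. Lines are group means and bands 1 SD: the Media wells end at 9.08 and the lowest treated well is at 11.54.

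The difference from Media was 3.06 on the log2 scale with Copaxone (SE 0.08, 8.34-fold), 3.11 with Glatopa (SE 0.08, 8.63-fold) and 2.87 with ACN (SE 0.08, 7.32-fold). In each of these comparisons, which share the 7 Media wells, Penk had the 7th largest rise among 39468 probes. For scale, limma called 16.2% of probes for Copaxone against Media, 18.9% for Glatopa and 7.09% for ACN at an adjusted p under 0.05. The called Copaxone probes were 3438 higher and 2947 lower, which became 2603 higher and 3551 lower after cyclic loess normalization, a share of higher calls of 53.8% and 42.3%. That share went from 52.7% to 41.2% for ACN. Penk kept a difference of 2.92, 3.00 and 2.80 for Copaxone, Glatopa and ACN under that normalization.

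The 3 copolymers were then compared with each other at the same concentration and time, a contrast that played no part in choosing the genes. Across all probes limma called 0% between Glatopa and Copaxone (0 of 39468, with 1630 at an unadjusted p under 0.05, and also 0 by the methods' t-test), 0.111% for ACN against Copaxone and 0.676% for ACN against Glatopa. Penk was not among them in any of the 3 pairs. Glatopa minus Copaxone was 0.05 on the log2 scale (SE 0.07, 95% interval −0.08 to 0.18, adjusted p = 0.995 from limma), and 1 of 16 Glatopa wells lay above every Copaxone well. ACN minus Copaxone was −0.19 (SE 0.07, 95% interval −0.33 to −0.05, adjusted p = 0.412), and 2 of 8 ACN wells lay below every Copaxone well. ACN minus Glatopa was −0.24 (SE 0.07, 95% interval −0.38 to −0.09, adjusted p = 0.128), and 4 of 8 ACN wells lay below every Glatopa well. The intervals are not adjusted for the number of probes, and a p that misses the threshold does not show that the copolymers act alike on Penk. ACN was a single lot, so lot and copolymer cannot be told apart for it. Penk ranked 1143rd by p of 39468 probes for ACN against Copaxone and 722nd for ACN against Glatopa. With lot as a random block the ACN and Glatopa difference passed, with an adjusted p of 0.0273 from limma at the same size of −0.24. That fit held all ACN wells as 1 block and called 1205 probes in place of 267.

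**Figure D2:**
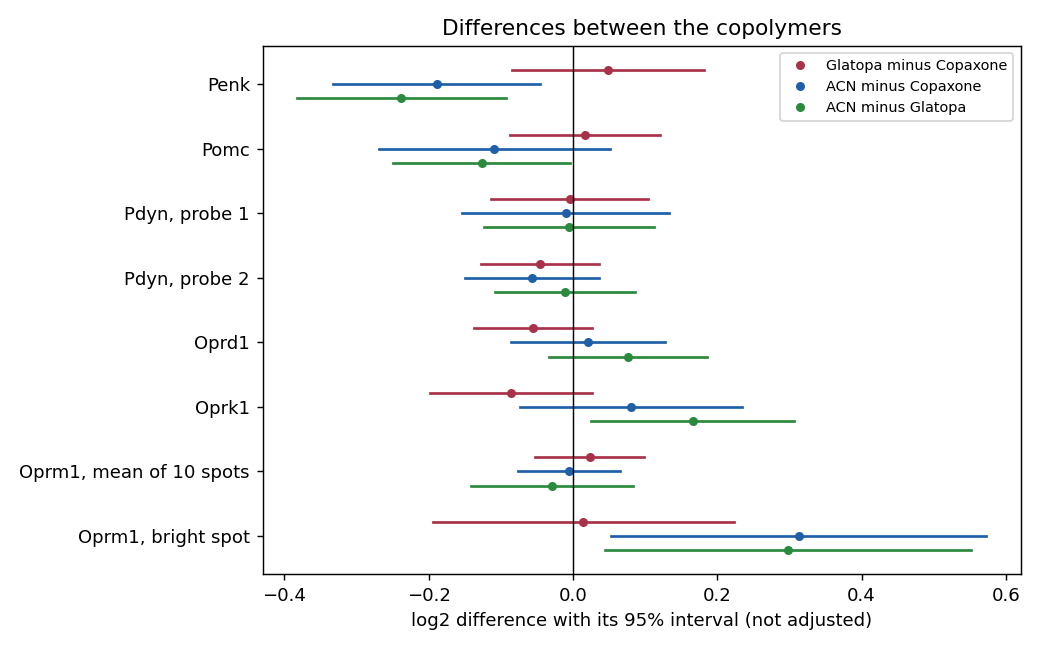
Points are log2 differences between the copolymers for each opioid probe, and bars their 95% intervals, which are not adjusted for the number of probes. The Penk intervals for ACN lie below 0, at −0.33 to −0.05 against Copaxone and −0.38 to −0.09 against Glatopa, and no difference shown passed the adjusted threshold.

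Penk was also compared between manufacturing lots. Copaxone lot means ran from 11.76 (lots 4 and 6) to 12.14 (lot 9), and Glatopa lot means from 11.87 (lot 3) to 12.10 (lot 4). No separation of lots beyond the wells within them was found, which does not show that the lots are alike. The F statistic between lots was 1.04 for the 9 Copaxone lots (Benjamini-Hochberg adjusted p = 0.434, one-sided permutation test with 100000 resamples) and 1.25 for the 4 Glatopa lots (adjusted p = 0.434). In Copaxone lot 9 replicate 1 was at 12.38 and replicate 2 at 11.89. In Glatopa lot 4 replicates 1 to 4 read 12.52, 12.19, 11.86 and 11.84. The lot test did not take the replicate number into account, so any difference between replicate numbers adds to the spread within lots. The spread of Penk within ACN was narrow: of 2208 probes with a mean level above 9, 0.226% had a smaller SD over the 8 ACN wells, against 2.99% over the Copaxone wells, 17.0% over the Glatopa wells and 31.7% over the Media wells.

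The Copaxone wells of lots 9, 3 and 7 with the highest Penk (12.38, 12.16 and 12.14) were arrays that stood apart in many other probes. All of them were replicate 1 of their lot. The first principal component of the variation within groups held 12.1% of it, and 4 arrays were extreme on it. Over the 17 Copaxone wells Penk rose with this component (Pearson's r = 0.92, permutation p = 1e-05, which is the smallest 100000 resamples can give, and Spearman's rho = 0.80, p = 0.00022). Adjusted over the 4 groups these were 4e-05 and 0.00088, and r was 0.80 without the 2 wells farthest out. Over the 16 Glatopa wells r was 0.45 (permutation p = 0.0803, adjusted 0.161) and rho 0.75 (p = 0.00121, adjusted 0.00242), with an r of 0.30 without the 2 farthest wells. Over the 8 ACN wells r was 0.26 (exact permutation p = 0.497, rho 0.24) and over the 7 Media wells 0.45 (exact permutation p = 0.31, rho 0.46). Without the 4 extreme arrays the Penk differences from Media were 2.99 for Copaxone and 2.86 for ACN. The component was built from these same arrays, and how many other probes followed it as closely was not tested. What it stands for, and the part of the replicate number in it, was not tested.

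**Figure D3:**
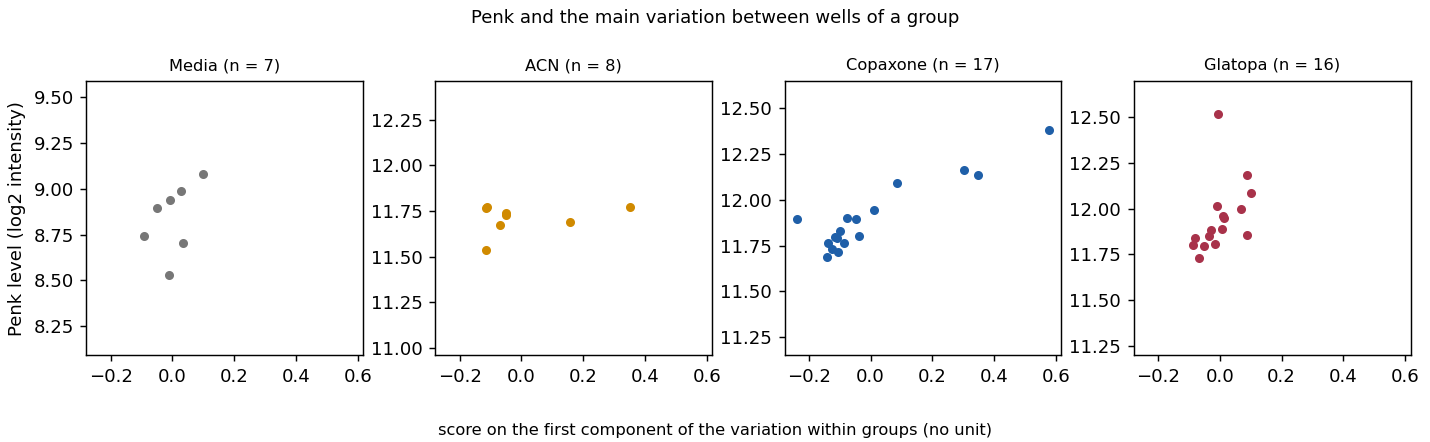
Each point is 1 well, with its score on the first component of the variation within groups on the horizontal axis and its log2 Penk level on the vertical axis, which spans 1.5 log2 units in every panel. The Copaxone points range from 11.69 to 12.38 in Penk, and their r with the component is 0.92. The Copaxone well lowest on the component, lot 9 replicate 2, reads 11.89.

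Genes whose level followed Penk from well to well in Copaxone were looked up in Glatopa. The 10 genes with the highest correlation to Penk over the Copaxone wells were Rpl19, A730008H23Rik, Stx5a, Pknox1, Tmem184c, Prrc2a, Vars2, Arl1, Rpl12 and Pdxk. Rpl19 and Rpl12 encode ribosomal proteins, and Stx5a and Arl1 act in Golgi traffic. Rpl19 led with r = 0.91 (rho 0.86). Over the 16 Glatopa wells, which had not been used to pick them, these 10 genes had r between −0.55 (Tmem184c) and 0.42 (Arl1), and Rpl19 had r = 0.33 (permutation p = 0.205, adjusted p = 0.411, rho 0.57 with adjusted p = 0.246, and r = 0.55 without the 2 farthest wells). Of the 10, 8 had an r above 0 and 0 passed an adjusted p under 0.05 by r. Without the 2 farthest wells r was 0.52 for Stx5a, 0.54 for Pknox1, 0.52 for Prrc2a and −0.25 for A730008H23Rik, and 7 of 10 were above 0. The median r of the 10 was 0.23, beside 0.03 over all probes with a gene symbol. With the first component removed and 10 genes picked anew, 2 of them, Arsg and Cops8, passed by r in the Glatopa wells. Their adjusted permutation p was 0.0024 and 0.0175 by r, but 0.0911 and 0.172 by rho, which did not pass. Without the 2 farthest wells r was 0.65 for Arsg and 0.38 for Cops8. The removed component had been computed with the Glatopa wells included.

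Of the other precursors, Pomc lay close to the median probe of the array and Pdyn below it in every group. Pomc, from which beta-endorphin and corticotropin are cut, had group means of 5.05 ± 0.23 in Media (n = 7), 4.90 ± 0.19 with ACN (n = 8), 5.01 ± 0.18 with Copaxone (n = 17) and 5.03 ± 0.10 with Glatopa (n = 16). Its wells ran from 4.55 to 5.52, the groups overlapped, and its group medians stood at the 35.6 to 52.0 percentile of probes. Pdyn, the dynorphin precursor, was read by 2 probes whose wells ran from 4.43 to 5.08 and whose group means ran from 4.72 to 4.84. The 25th percentile of all probes was 4.82 and the median 4.93. The deposited table gives no detection calls or background, so these 2 genes cannot be called absent. A level is a probe's own, and levels of different probes are set beside the array's distribution only.

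**Figure D4:**
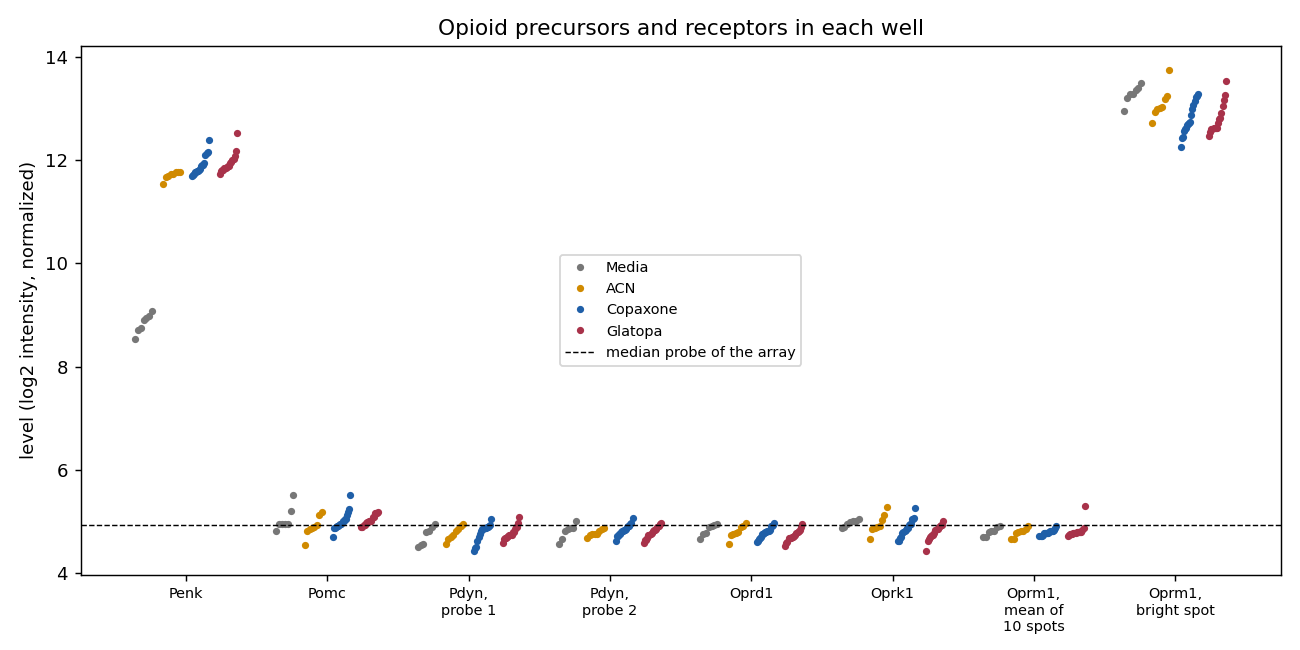
Each point is 1 well, the vertical axis is the normalized log2 level, and the dashed line is the median probe of the array at 4.93. Penk and the single bright Oprm1 spot are far above that line in all groups, and the other opioid probes cluster around or under it.

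The receptor probes for delta and kappa lay around or under the median probe. Oprd1, the preferred receptor of enkephalins, had group means of 4.84 ± 0.11 in Media, 4.80 ± 0.13 with ACN, 4.78 ± 0.11 with Copaxone and 4.73 ± 0.11 with Glatopa, with wells from 4.53 to 4.97. Oprk1, the dynorphin receptor, had 4.96 ± 0.06 in Media, 4.95 ± 0.19 with ACN, 4.87 ± 0.17 with Copaxone and 4.79 ± 0.15 with Glatopa. The Media wells of Oprk1 ran from 4.86 to 5.04 and the Glatopa wells from 4.43 to 5.00, so they overlapped, although 11 of 16 Glatopa wells lay below every Media well. The difference was −0.17 on the log2 scale, at a level around the median probe.

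Oprm1, the mu receptor, was read by 11 spots that carry the same symbol and accession, and they disagreed. Of the 11 spots 10 were low in every group: their 480 values lay between 4.33 and 5.76, apart from 1 value of 9.87 on the array of Glatopa lot 4 replicate 4, where the other low spots read 4.66 to 4.98. The remaining spot was among the brightest of the array, with a mean of 12.92. Its lowest, median and highest log2 levels were 12.95, 13.29 and 13.50 in Media, 12.71, 13.02 and 13.75 with ACN, 12.25, 12.71 and 13.29 with Copaxone, and 12.46, 12.67 and 13.53 with Glatopa. The groups overlapped, and 11 of 17 Copaxone wells and 12 of 16 Glatopa wells lay below every Media well. The difference from Media was −0.49 with Copaxone (SE 0.12), −0.47 with Glatopa (SE 0.12) and −0.17 with ACN (SE 0.12), which was −0.27 without ACN replicate 4. ACN exceeded Copaxone by 0.31 (SE 0.13, 95% interval 0.05 to 0.57, adjusted p = 0.481 from limma) and Glatopa by 0.30 (SE 0.12, 95% interval 0.05 to 0.55, adjusted p = 0.349), and Glatopa minus Copaxone was 0.01 (SE 0.10, 95% interval −0.19 to 0.22, adjusted p = 0.998).

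Which RNA the bright Oprm1 spot reports is unresolved, and it was kept apart from the other 10. Its closest probe over the Copaxone wells, picked after the values were seen, was that of Hexim2, which encodes an inhibitor of the elongation factor P-TEFb. The correlation was 0.88 there (n = 17) and 0.90 over the 16 Glatopa wells (permutation p = 1e-05, the smallest 100000 resamples can give, rho 0.85 with p = 1e-04, and r = 0.85 without the 2 farthest wells). The likeness was not particular to Hexim2. A230051N06Rik had r = 0.86 and Sly 0.84 over the Copaxone wells, and AA386476 led over the Glatopa wells with 0.92. Hexim2 was bright as well, with 13.70 ± 0.16 in Media, 13.58 ± 0.28 with ACN, 13.23 ± 0.32 with Copaxone and 13.24 ± 0.29 with Glatopa. The bright Oprm1 spot and Penk had r = −0.31 over the Copaxone wells and 0.26 over the Glatopa wells, given as a description.

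With the 10 low Oprm1 spots averaged, the 6 genes gave 8 probes. Against Media 2 of the 8 were called with Copaxone (Penk higher, the bright Oprm1 spot lower), 3 with Glatopa (the same and Oprk1 lower) and 1 with ACN (Penk). These contrasts chose the set, so nothing is read from these counts beside the 16.2%, 18.9% and 7.09% of all probes. Between the copolymers 0 of 8 were called in each of the 3 pairs, beside 0%, 0.111% and 0.676% of all probes. Apart from Penk and the bright Oprm1 spot, the differences between copolymers ran no further than −0.13 (Pomc, ACN minus Glatopa, 95% interval −0.25 to −0.00, adjusted p = 0.447) and 0.17 (Oprk1, ACN minus Glatopa, 95% interval 0.03 to 0.31, adjusted p = 0.348).

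The rest of the pathway was followed through 5 lists of 82 genes, of which 77 were measured. These genes are no members of the set and were tested against Media, with limma's p adjusted over all 39468 probes. The lists were chosen with earlier results of these data known, so the counts and p-values are not independent support. With Copaxone 19 of 77 were called (7 higher, 12 lower), which is 24.7% beside 16.2% of all probes. With Glatopa 22 were called (7 higher, 15 lower), 28.6% beside 18.9%, and with ACN 16 (4 higher, 12 lower), 20.8% beside 7.09%. Each gene was read by its brightest probe, whereas the percentage of all probes counts dim probes too. Among the 19734 probes above the median probe alone, with p adjusted anew over these, 20 of 55 pathway genes were called with Copaxone (36.4% beside 34.8% of probes), 24 with Glatopa (43.6% beside 40.2%) and 16 with ACN (29.1% beside 16.4%). The Copaxone and Glatopa shares were thus near those of probes in general. The 3 comparisons share the Media wells. The list medians lay between −0.06 and 0.06 in all 3 comparisons, beside a median of −0.00 over all probes.

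**Figure D5:**
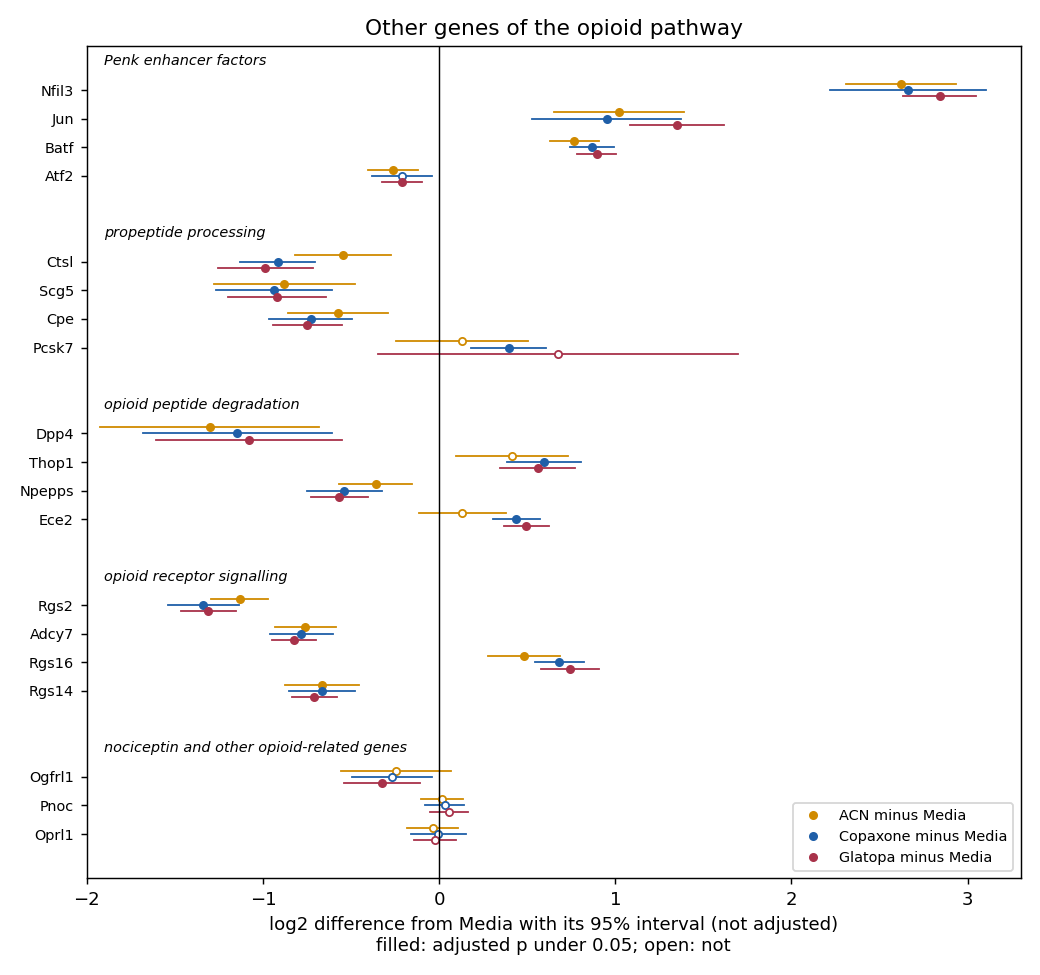
Points are log2 differences from Media for the named pathway genes, by list and copolymer, with 95% intervals that are not adjusted for the number of probes. Filled points passed an adjusted p under 0.05. Nfil3 lies furthest to the right at 2.62 to 2.84, and Rgs2 and Dpp4 furthest to the left at −1.34 to −1.08.

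Transcription factors listed for the Penk enhancer, such as those of the AP-1, CREB and ATF, NF-kappaB and NFAT families, were mostly not called. Of 23, 3 rose with each copolymer, and 1 fell with Copaxone and 2 with Glatopa and with ACN. Over all probes 8.71% rose and 7.47% fell with Copaxone, 10.4% and 8.57% with Glatopa, and 3.73% and 3.35% with ACN. Nfil3, a listed bZIP factor outside these families that is induced in activated lymphocytes, rose most. Any part of it in the rise of Penk was not tested. The lowest, median and highest levels of Nfil3 were 7.21, 7.53 and 7.84 in Media, 9.47, 10.27 and 10.60 with ACN, 8.45, 10.44 and 10.66 with Copaxone, and 9.90, 10.35 and 10.75 with Glatopa. The groups did not overlap with Media, and the log2 differences were 2.66 with Copaxone (SE 0.21, adjusted p = 7.22e-10 from limma), 2.84 with Glatopa (SE 0.10, adjusted p = 4.63e-17) and 2.62 with ACN (SE 0.15, adjusted p = 5.13e-09). Jun, the AP-1 subunit, rose by 0.95, 1.35 and 1.02 in the same order, with 13 of 17, 16 of 16 and 8 of 8 wells above every Media well. Batf, the AP-1 factor of activated T cells, rose by 0.87, 0.89 and 0.77, and all treated wells lay above the Media wells. Atf2, a partner of Jun, was lower with Glatopa (−0.21, adjusted p = 0.00734) and ACN (−0.26, adjusted p = 0.0212), and measured −0.21 with Copaxone (adjusted p = 0.0944). Only 1 of the 4 Atf2 probes lay above 6 in its overall mean, and with all 4 averaged the difference was −0.01 for Glatopa (adjusted p = 0.888) and −0.06 for ACN (adjusted p = 0.629), so that neither passed. Fos, named after its values were seen, was lower by −0.19, −0.17 and −0.18 at a level near the median probe, and 17 of 28 alternatives lost the ACN call.

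Of the genes that cut and finish prohormones, 3 of 13 fell with each copolymer, and 1 rose with Copaxone. Over all probes limma called 16.2% with Copaxone, 18.9% with Glatopa and 7.09% with ACN in either direction. Scg5 encodes 7B2, the chaperone of prohormone convertase PC2, and had a median of 6.70 in Media, 5.77 with ACN, 5.50 with Copaxone and 5.60 with Glatopa. It fell by 0.94 on the log2 scale with Copaxone (SE 0.16, adjusted p = 0.000104 from limma), by 0.92 with Glatopa and by 0.88 with ACN, and its groups overlapped, since the lowest Media well was at 5.76. Cpe, the carboxypeptidase that trims the basic residues left by the convertases, fell by 0.73, 0.75 and 0.57, and its Media wells (6.18 to 6.87) lay above all Glatopa and ACN wells and 16 of 17 Copaxone wells. Ctsl encodes cathepsin L, a lysosomal protease that has also been found to cut proenkephalin. It had medians of 11.08 in Media, 10.38 with ACN, 10.11 with Copaxone and 10.10 with Glatopa, and fell by 0.92 with Copaxone, 0.99 with Glatopa and 0.54 with ACN. Of the ACN wells 7 of 8 lay below every Media well, as did all Copaxone and Glatopa wells. Pcsk7, a convertase of the secretory pathway, rose by 0.40 with Copaxone (adjusted p = 0.00759) and measured 0.68 with Glatopa (adjusted p = 0.431), where 1 well read 11.08 and the median was 5.55. With all 4 groups in one fit the Copaxone difference no longer passed (adjusted p = 0.569). Cpe had 3 probes, of which the lowest showed no such shift: it read 4.87 in Media and 4.86 with Copaxone, near the low end of the array. With all 3 averaged the differences were −0.43, −0.45 and −0.31, of which that for ACN no longer passed (adjusted p = 0.0631). Macrophages express Ctsl too, and of 7 monocyte and macrophage markers 3 fell with each copolymer and 1 rose with Copaxone and with Glatopa. Their mean level was 6.02 to 6.46 in Media wells and 5.74 to 6.16 in treated wells. The part of these cells in the fall of Ctsl was not tested.

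Peptidases that cut enkephalins or related peptides moved in both directions. With Copaxone 2 of 11 rose and 2 fell, with Glatopa 3 rose and 3 fell, and with ACN 0 rose and 2 fell. These counts stand beside 16.2%, 18.9% and 7.09% of all probes called in either direction. Dpp4, which removes N-terminal dipeptides and is the T-cell surface protein CD26, had lowest, median and highest levels of 6.07, 6.50 and 8.36 in Media and medians of 5.51 with ACN, 5.60 with Copaxone and 5.64 with Glatopa. It fell by 1.14 with Copaxone (SE 0.26, adjusted p = 0.00228 from limma), 1.08 with Glatopa (SE 0.26, adjusted p = 0.00282) and 1.30 with ACN (SE 0.29, adjusted p = 0.0104), and its Media wells were widely spread. Npepps, the puromycin-sensitive aminopeptidase, fell by 0.54, 0.57 and 0.36. Its dimmer second probe read 5.55 in Media and 5.90 with Copaxone, and with both probes averaged the difference was −0.09 for Copaxone, −0.08 for Glatopa and −0.00 for ACN, none of which passed. Thop1, a soluble endopeptidase that shortens dynorphins and other neuropeptides, rose by 0.60 with Copaxone and 0.56 with Glatopa and measured 0.41 with ACN (adjusted p = 0.123). Ece2, an endothelin-converting enzyme that also processes opioid peptides, rose by 0.44 with Copaxone and 0.49 with Glatopa and measured 0.13 with ACN (adjusted p = 0.661). It was lower with ACN than with Glatopa by −0.36 (SE 0.09, adjusted p = 0.0465 from limma) with 4 of 8 ACN wells below every Glatopa well. Its second probe read 4.88 in Media, 4.85 with Copaxone and 4.91 with Glatopa, and with both averaged the differences from Media were 0.21 for Copaxone and 0.26 for Glatopa, both of which still passed, and ACN minus Glatopa was −0.19 and did not pass. Anpep, the aminopeptidase CD13 of myeloid cells, was named after its values were seen. It was lower with Glatopa than in Media (−0.41, adjusted p = 0.00192) and higher with ACN than with Glatopa by 0.40 (SE 0.09, adjusted p = 0.0432 from limma), with 5 of 8 ACN wells above every Glatopa well. These were the 2 of 77 pathway genes called between ACN and Glatopa, 2.6% beside 0.676% of all probes, and 0 were called between the other pairs of copolymers. Either call was lost when 1 of several lots or wells was left out, with adjusted p from 0.0506 to 0.16 for Ece2 (each Glatopa lot and ACN replicates 1, 2, 3, 4, 5 and 7) and 0.0506 to 0.156 for Anpep (Glatopa lots 1, 2 and 4 and all ACN replicates but 7). In the same comparison 1 of 7 monocyte and macrophage markers and 1 of 7 neutrophil markers were higher with ACN, and their part in the Anpep difference was not tested. The remaining call with Glatopa against Media was Dpp3 (0.30), also named after its values were seen.

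Of the genes that relay or end opioid receptor signals, 1 of 25 rose with each copolymer, and 6 fell with Copaxone, 6 with Glatopa and 5 with ACN. Over all probes 16.2%, 18.9% and 7.09% were called in either direction. The listed genes serve many receptors and are not particular to opioids. Rgs2, a GTPase-activating protein of G-protein alpha subunits, had lowest, median and highest levels of 8.41, 8.66 and 8.86 in Media, 7.35, 7.51 and 7.65 with ACN, 6.51, 7.30 and 7.74 with Copaxone, and 6.85, 7.33 and 7.53 with Glatopa, with no overlap with Media. It fell by 1.34 with Copaxone (SE 0.10, adjusted p = 1.43e-10 from limma), 1.31 with Glatopa and 1.13 with ACN. Its second probe read 4.71 in Media and 4.72 with Copaxone, and with both averaged the differences were −0.66, −0.63 and −0.56, which still passed. Rgs14 fell by 0.66, 0.71 and 0.67, whereas Rgs16, which is induced in activated T cells, rose by 0.68, 0.74 and 0.48. Adcy7, an adenylyl cyclase of blood cells, fell by 0.78, 0.82 and 0.76, and every treated well lay below every Media well. Both beta-arrestins, named after their values were seen, fell too. Arrb1 differed by −0.69, −0.70 and −0.53 and Arrb2 by −0.58, −0.58 and −0.40 for Copaxone, Glatopa and ACN. Grk3, also named afterwards, was lower with Copaxone (−0.22) and Glatopa (−0.21). Beside these falls, 4 of 7 neutrophil markers fell with Copaxone and with Glatopa and 1 with ACN, and their mean level was 7.47 to 7.73 in Media wells and 6.83 to 7.57 in treated wells. The part of neutrophils, monocytes or macrophages in the falls was not tested.

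The nociceptin branch lay under the median probe. Pnoc, its precursor, had group means of 4.75 to 4.80, and Oprl1, its receptor, 4.86 to 4.89, with differences from Media of −0.04 to 0.06 and adjusted p of 0.565 or more from limma. Of the 5 measured genes of that list 0 were called with Copaxone and with ACN. With Glatopa 1 was called, Ogfrl1, a relative of the opioid growth factor receptor, at −0.33 (adjusted p = 0.0273). It measured −0.27 with Copaxone (adjusted p = 0.114) and −0.25 with ACN (adjusted p = 0.445), and without Media replicate 6 the Glatopa difference was −0.21 (adjusted p = 0.0951).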

How the data were processed

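RNA of each well was labelled with a single dye and hybridized to Agilent mouse arrays. Before deposit, the authors applied normexp background correction, a log2 transform and quantile normalization over the 48 arrays. The deposited log2 values, 1 per spot, therefore hold a level relative to each array as a whole. Array medians ran from 4.95 to 5.02, and the number of arrays is among the limits on precision. Symbols came from the platform annotation, under which 29474 of 39468 probes carried one.

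Spots that share symbol and accession in groups of at least 10 were averaged, except 38 spots over 1 log2 unit from their group's median. This exception was set after the values had been seen. Pairs of groups were fitted with limma 3.58.1 (R 4.3.3, lmFit and eBayes) and adjusted by Benjamini-Hochberg over all 39468 probes, with an adjusted p under 0.05 as the call. The authors' plain t-test was an alternative. Lots were compared by permuting the F statistic, and correlations were tested by permutation (Python 3.11.15, scipy 1.17.1). The limma fits and the lot test were tested on simulated data.

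The genes and the lists were chosen with earlier results of these data known. Named genes are the 6 opioid genes, up to 4 called genes of each list with the largest difference from Media, Pnoc, Oprl1 and the 10 genes most like Penk over the Copaxone wells. A gene with several probes was read by that with the highest mean.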

Additional observations from a re-analysis of the deposited data

Results flagged for a closer look

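In the smaller groups a well was marked where its gap to the next well was a large share of the group's range, a mark that chance gives to about 1 in 20 groups. Of 86 such groups 9 were marked. Penk in ACN replicate 6 read 11.54, with the next well at 11.68. In ACN replicate 4 Adcy7 read 7.32 and Anpep 7.43. In Media wells Batf read 7.43 in replicate 6, Thop1 5.58 in replicate 2, A730008H23Rik 5.66 and Pknox1 4.70 in replicate 6, Arl1 6.91 in replicate 2 and Rpl12 12.77 in replicate 1. Between copolymers Ece2 and Anpep were marked, since their differences of −0.36 and 0.40 between ACN and Glatopa passed the adjusted threshold.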

How the results depend on the processing

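Penk kept its direction in every alternative against Media. Leaving out one lot, ACN replicate or Media replicate at a time gave differences of 3.01 to 3.10 for Copaxone, 3.06 to 3.15 for Glatopa and 2.82 to 2.91 for ACN. Between copolymers the range was −0.00203 to 0.0806 for Glatopa minus Copaxone, the lowest without Glatopa lot 4, −0.21 to −0.16 for ACN minus Copaxone and −0.27 to −0.19 for ACN minus Glatopa, all with adjusted p above 0.05. Over all alternatives Glatopa minus Copaxone reached 0.13 (replicate block) and 0.12 (without the extreme arrays), and ACN minus Copaxone shrank to −0.13 under cyclic loess and without those arrays. With lot as a random block, in which the ACN wells are 1 block, ACN minus Glatopa was −0.24 and passed (adjusted p = 0.0273), and the pathway genes called for ACN went from 16 to 6. The cause was not tested. The labels do not say what same-numbered wells share. The correlations of their deviations ran from −0.468 to 0.178. The own number gave the best match in 3 of 4 for Glatopa with Media, 0 of 7 for ACN with Media and 2 of 4 for ACN with Glatopa. Whether same-numbered wells were handled together was not tested. With the replicate number as a block, Penk differed from Media by 3.00, 3.14 and 2.86 for Copaxone, Glatopa and ACN. For Copaxone only Media replicates 1 and 2 remained in that fit, and 10 pathway genes were called in place of 19. The bright Oprm1 spot then differed by −0.51 for Copaxone, against −0.49 in the main fit, and no longer passed (adjusted p = 0.23 from limma). Pcsk7 then differed by 0.10 (adjusted p = 0.833), Thop1 by 0.31, Cpe by −0.43 and Npepps by −0.32 for Copaxone and Dpp4 by −0.66 and Ogfrl1 by −0.13 for Glatopa, none of which passed. Of the 10 genes like Penk 2 passed by r, but not by rho, in Glatopa wells once the first component was removed, with the 10 picked anew. When the genes were picked in Glatopa wells 0 passed. The mean difference within lots gave adjusted p = 0.526 for both products. Of the 57 calls of named pathway genes against Media 31 held in all alternatives and 26 were lost in 1 or more. Over all probes the alternatives called 3 to 92 in place of 44 for ACN against Copaxone, 82 to 1205 in place of 267 for ACN against Glatopa, and 1 in place of 0 for Glatopa against Copaxone without Glatopa lot 4. Against Media the replicate block called 2246 in place of 6385 for Copaxone and the lot block 892 in place of 2798 for ACN. The deposited table gives no signal over background for each spot, so changes in the dim probes may be understated.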
